A study of Homo sapiens with 6 samples.

Results

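Fibronectin and 6 other secreted matrix glycoprotein genes, FN1, TNC, THBS1, FBLN2, TGFBI, SPARC and LUM, were followed in 6 RNA sequencing libraries. The 7 genes were taken by symbol from the 17646 genes listed, and all 7 were present. They were chosen partly because several of them were much lower after USP32 depletion, so the difference between the groups is described for them and carries no test. The cells, labelled MDA-MB-231 and triple negative breast cancer, were transfected for 48 h with a control siRNA (siControl, 3 libraries) or an siRNA against USP32 (siUSP32, 3 libraries). USP32 encodes a ubiquitin-specific protease, and the study's title ties it to the stability of YAP. No other treatment or allele is given in the labels, and they do not tell whether libraries of the same group were separate cultures. Values are FPKM, fragments scaled to transcript length and to the mapped total, so that levels can be compared between genes. They measure RNA in bulk, where fewer cells of a type and less RNA per cell cannot be told apart.

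USP32 itself was at 7.5, 7.48 and 8.32 FPKM in siControl and at 2.0, 1.88 and 2.01 FPKM in siUSP32. Of the 9 listed breast cancer subtype markers, ESR1 was at 0.5 and 0.207 FPKM on average in siControl and siUSP32, and CDH1 at 0.473 and 0.0167 FPKM. The keratin genes KRT8 (2930 and 2990 FPKM), KRT18 (2370 and 2610) and KRT7 (1610 and 2060) were at higher levels than VIM (1090 and 1660). EPCAM was at 10.5 and 4.24 FPKM, ERBB2 at 12 and 3.6 FPKM and EGFR at 37.8 and 7.16 FPKM. CDKN2A, a gene known to be homozygously deleted in MDA-MB-231, was at 99.25 to 103.86 FPKM in siControl and 256.83 to 335.9 FPKM in siUSP32, which goes against the label. It was singled out after its values were seen, and the part of the cell line's identity in the results was not tested. The summed FPKM of all listed genes ranged from 686376 to 694831 in siControl and reached 855573 to 948641 in siUSP32. The 8 listed fibroblast markers summed to 7.31 to 8.17 FPKM in siControl and 3.72 to 4.4 FPKM in siUSP32, with DCN, PDGFRA, PDGFRB and THY1 below 1 FPKM in both groups. The others were FAP (2.75 and 0.843 FPKM on average in siControl and siUSP32), COL1A1 (1.89 and 0.803), COL3A1 (1.29 and 0.123) and ACTA2. ACTA2 went the other way, from 0.633 to 1.62 FPKM. The 8 listed blood and endothelial markers summed to 25.1 to 27.5 and 19.4 to 24.5 FPKM, nearly all of it from CD68. PTPRC was at 0 in every siControl library.

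Matrix glycoproteins are secreted proteins that are assembled into fibrils and networks outside the cell, where integrins and syndecans bind them and link them to the actin cytoskeleton. Fibronectin is the provisional scaffold of this network. Tenascin-C (TNC) and thrombospondin-1 (THBS1) are matricellular proteins that modulate adhesion, and fibulin-2 (FBLN2) bridges fibronectin and other matrix fibres. TGFBI is an adhesion protein named for its induction by TGF-beta, SPARC binds collagen and calcium, and lumican (LUM) is a small leucine-rich proteoglycan of collagen fibrils. Their transcription is known to respond to TGF-beta, and FN1 and TNC are linked to mesenchymal and invasive behaviour in carcinoma.

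Windows of 250 bases before the RefSeq starts (GRCh38.p14) were searched for motifs in the 6 of 7 members that matched (LUM did not). GENCODE 29 places some starts further upstream, so that its first exons cover the last 104 bases of the FN1 window, 100 of the TNC window, 93 of the TGFBI window and all 250 of the SPARC window. Only the part before those exons is shown, 5′ to 3′, for 3 members, chosen to set FN1 (the lowest siUSP32 to siControl ratio) and TNC beside the nearly silent THBS1. Capitals mark matches, on either strand, to the motifs searched. These were the full cyclic AMP response element TGACGTCA and its shorter form TGACG, which lies within it, the AP-1 site TGANTCA, the GC box GGGCGG, the TATA box TATAAA, the CCAAT box CCAAT, the TEAD site GGAATG and the SMAD palindrome GTCTAGAC.
FN1, chr2:215436173-215436318, minus strand: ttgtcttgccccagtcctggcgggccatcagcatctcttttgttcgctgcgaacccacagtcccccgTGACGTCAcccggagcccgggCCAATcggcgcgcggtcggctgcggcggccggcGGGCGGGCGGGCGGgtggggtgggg
TNC, chr9:115118258-115118407, minus strand: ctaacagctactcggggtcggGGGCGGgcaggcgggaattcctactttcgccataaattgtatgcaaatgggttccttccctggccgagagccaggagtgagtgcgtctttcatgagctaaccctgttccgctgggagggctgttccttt
THBS1, chr15:39580829-39581078, plus strand: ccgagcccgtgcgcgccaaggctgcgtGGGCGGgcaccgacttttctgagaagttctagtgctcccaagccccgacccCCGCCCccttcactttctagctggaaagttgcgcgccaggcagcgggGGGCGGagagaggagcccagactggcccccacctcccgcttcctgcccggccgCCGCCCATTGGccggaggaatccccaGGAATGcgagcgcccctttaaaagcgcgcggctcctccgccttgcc

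The FN1 window held the full cyclic AMP response element, beginning at base -183 from the start, a CCAAT box at -162 and 6 GC boxes, of which 3 lie wholly in the part shown. The full element was present in 1.65% of 35116 promoter windows of this length and in no other member window. A TEAD site was present in the windows of SPARC (at -17, within the GENCODE gene) and THBS1 (at -46), and in 11.9% of all windows. GC boxes were found in 5 of 7 member windows (FBLN2 has 2 annotated starts), against 42.6% of all windows. Of the windows with a GC box, those of FBLN2 (80.4% G and C), FN1 (76.4%), TGFBI (72.8%) and THBS1 (69.6%) were richer in G and C than the median window (58%). That of TNC (54.8%) was not. Whether GC boxes were more frequent than this composition gives was not tested. No member window held the TATA box, the AP-1 site or the SMAD palindrome, which were present in 10.7%, 6.57% and 0.182% of all windows. No motif of this set was thus found in all members with a window. The GC box was missing only from the SPARC window, which GENCODE exons cover wholly, and from the other FBLN2 window. A match is a description of letters, not of a bound site.

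FN1 (Entrez 2335, chromosome 2, 215360440 to 215436172, minus strand of GRCh38) was at 415.86, 421.73 and 426.57 FPKM in the siControl libraries. In the siUSP32 libraries it was at 10.37, 9.74 and 11.79 FPKM. All 3 siUSP32 values lay far below all 3 siControl values, and the siUSP32 mean was 2.52% of the siControl mean. On the scale of log2(FPKM + 1), on which all differences below are siUSP32 minus siControl, the difference was -5.19 ± 0.07 (SE, n = 3 per group), the lowest of the 12003 genes that passed a minimum mean of 1 FPKM. FN1 was among the more abundant transcripts of the siControl libraries, in place 233 by mean level, and in place 5834 in siUSP32.

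TNC (Entrez 3371, chromosome 9, 115019578 to 115118257, minus strand) was at 53.09, 53.2 and 54.11 FPKM in siControl and at 3.09, 2.62 and 2.45 FPKM in siUSP32. The groups did not overlap, and its log2 difference of -3.88 ± 0.07 (SE) was the third lowest of all genes tested. FBLN2 (Entrez 2199, chromosome 3, 13549131 to 13638422, plus strand) was at a like siControl level, 58.64, 58.66 and 57.66 FPKM, and at 4.27, 4.14 and 4.51 FPKM in siUSP32. Its siUSP32 mean was 7.38% of the siControl mean (log2 difference -3.48 ± 0.05, SE), against 5.09% for TNC.

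TGFBI (Entrez 7045, chromosome 5, 136028895 to 136063818, plus strand) was at 189.17, 181.65 and 186.51 FPKM in siControl and at 26.06, 24.58 and 25.12 FPKM in siUSP32, or 13.6% of the siControl mean (log2 difference -2.83 ± 0.05, SE). SPARC (Entrez 6678, chromosome 5, 151661096 to 151687165, minus strand) was at 546.93, 552.37 and 548.29 FPKM in siControl and at 137.23, 126.66 and 143.83 FPKM in siUSP32. LUM (Entrez 4060, chromosome 12, 91102629 to 91111831, minus strand) was at 31.21, 32.33 and 32.45 FPKM in siControl and at 8.1, 7.25 and 7.89 FPKM in siUSP32. SPARC and LUM kept the largest shares of their siControl means among the tested members, 24.7% and 24.2%, with log2 differences of -2.01 ± 0.06 and -1.92 ± 0.06 (SE). No siUSP32 value of these genes reached a siControl value.

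THBS1 (Entrez 7057, chromosome 15, 39581079 to 39599466, plus strand) stood apart because it was barely listed in either group. It was at 0.05, 0.03 and 0.04 FPKM in siControl and at 0.01, 0.02 and 0.01 FPKM in siUSP32. These values are 1 to 5 steps of the 0.01 to which the files are rounded, so no fold is given, and the gene was not among those tested. THBS1 overlaps FSIP1 on the opposite strand, and the handling of strand is not given in the sources used here, so reads from the pair cannot be told apart. TNC and SPARC also have annotated genes on the opposite strand (DEC1 and CLMAT3), which were not analysed here.

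**Figure D1:**
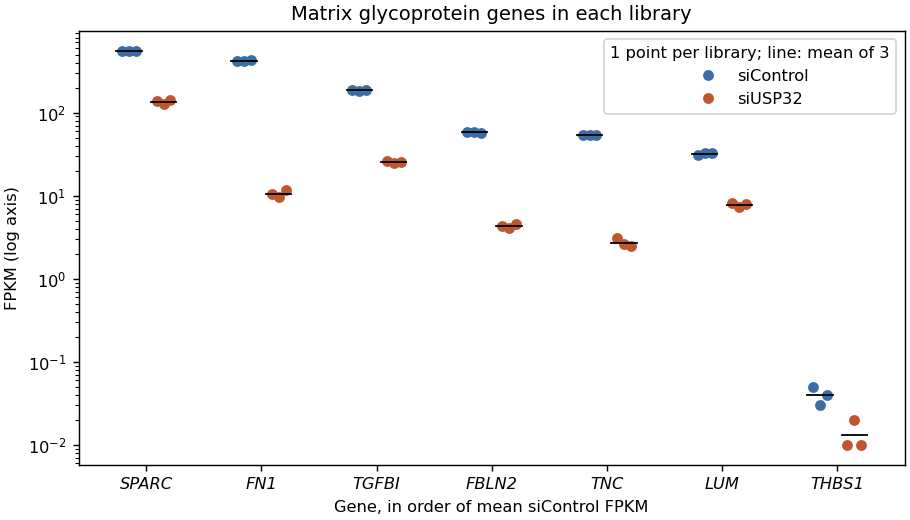
FPKM of the 7 matrix glycoprotein genes (log axis) in each siControl and siUSP32 library, 1 point per library with the mean of 3 as a line. Every siUSP32 point lies below every siControl point of its gene, with FN1 going from about 421 to 10.6 FPKM on average and THBS1 near 0 throughout.

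The siControl and siUSP32 values did not overlap for any of the 7 genes, which were all lower in siUSP32. Groups did not overlap for 77.8% of the genes tested, and for 43.2% with siUSP32 lower. The members were chosen on this contrast, so nothing is read from their count. Each of the 6 tested members was above 1 FPKM in every library of both groups, so none passed the minimum through siControl alone. Their summed FPKM made up 0.188% to 0.189% of all listed FPKM in siControl and 0.0184% to 0.0229% in siUSP32.

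The order of the members changed between the groups. In siControl it ran from SPARC (549 FPKM) through FN1 (421), TGFBI (186), FBLN2 (58.3), TNC (53.5) and LUM (32.0) to THBS1 (0.04). Neighbours in this order did not overlap in their 3 values, although FBLN2 exceeded TNC by only 1.09 times. In siUSP32 it ran from SPARC (136 FPKM) through TGFBI (25.3), FN1 (10.6), LUM (7.75), FBLN2 (4.31) and TNC (2.72) to THBS1 (0.0133), again without overlap between neighbours. FN1 thus went from 2.27 times above TGFBI to below it by 2.37 times, and LUM from the lowest of the 6 tested members to above FBLN2 and TNC. Libraries of a group differed little. The coefficient of variation of the tested members lay between 0.515% and 2.14% in siControl and between 2.97% and 12.2% in siUSP32, where TNC varied most. The siUSP32 library 2 had the lowest value for FN1, FBLN2, TGFBI, SPARC and LUM, but not for TNC. That library also had the lowest median over all listed genes (3.59 FPKM) and the highest summed FPKM (948641).

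Relatives of the members in the same gene families were mostly lower too. The relatives and the other lists below are compared with limma, at a Benjamini-Hochberg adjusted p under 0.05 over all 12003 genes. By this rule 74.6% of all genes tested were called, 41.3% lower and 33.3% higher, with a median log2 difference of -0.06. Of the 110 genes called lower in the 8 lists, 13 had a siUSP32 mean below 1 FPKM and passed the minimum only through siControl, so that a fall was the only difference they could show. Of 21 relatives listed 10 were tested, of which 9 fell, 0 rose and 1 did not pass, with a median of -1.34. FSTL1, a secreted SPARC-related protein, fell 6.29-fold from 64.9 ± 1.07 to 10.3 ± 1.34 FPKM (SD, n = 3, adjusted p = 1.51e-08 by limma). THBS3, a pentameric thrombospondin, fell 5.10-fold from 31.8 ± 0.477 to 6.24 ± 0.436 FPKM (adjusted p = 6.93e-09 by limma), in cells where THBS1 was near 0. EFEMP1, a fibulin, fell 5.85-fold from 12.2 to 2.09 FPKM (adjusted p = 1.42e-07 by limma). EFEMP2, another fibulin, was the relative that did not pass, at 13.6 and 13.2 FPKM, although it was called lower with TPM scaling (-0.39, adjusted p = 0.00124 by limma). It was named after its values were seen. The value of TNXB, at 77.0 and 30.3 FPKM, is uncertain because the gene shares sequence with a pseudogene copy.

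Other secreted matrix glycoproteins showed the same direction. Of 40 listed 24 were tested, of which 21 fell, 1 rose and 2 did not pass, with a median of -1.05. EDIL3, an integrin-binding secreted protein, fell 10.6-fold from 32.3 ± 0.6 to 3.05 ± 0.408 FPKM (adjusted p = 4.14e-09 by limma), and MATN3, a matrilin of cartilage matrix, fell 11.8-fold from 16.7 to 1.42 FPKM (adjusted p = 3.66e-09 by limma). FBN1, the fibrillin of microfibrils, fell 17.2-fold from 7.06 ± 0.136 to 0.41 ± 0.0557 FPKM (adjusted p = 5.13e-09 by limma). It was 1 of 6 such genes of this list that passed the minimum through siControl alone. EMILIN2, an elastin-associated glycoprotein, rose from 3.16 ± 0.14 to 4.19 ± 0.323 FPKM (adjusted p = 0.00345 by limma), a call lost with TPM scaling. The 2 that did not pass were MMRN2 and MFAP1, the latter a nuclear splicing protein despite its name, and both were named after their values were seen. MMRN2 was called lower with TPM scaling (-0.36, adjusted p = 0.0139 by limma) and MFAP1 higher with the median ratio (0.27, adjusted p = 0.0101 by limma). Among the small leucine-rich and other proteoglycans, 10 of 11 listed were below the minimum. The other was VCAN, which encodes the large proteoglycan versican, not a small leucine-rich one. It fell 9.78-fold from 24.2 to 2.47 FPKM (adjusted p = 2.16e-09 by limma). LUM was therefore the abundant small leucine-rich member, with DCN at 0.167 and BGN at 0.01 FPKM on average in siControl.

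The cell-surface receptors that bind these proteins were lower throughout. Of 19 listed 14 were tested, and 14 fell, with a median of -1.45. ITGB1 and ITGA5 encode the classical fibronectin receptor. ITGB1 went from 340.99, 348.25 and 357.62 to 28.59, 21.76 and 28.69 FPKM (adjusted p = 4.3e-09 by limma), and ITGA5 from 137.34, 137.67 and 139.75 to 38.55, 43.24 and 41.37 FPKM (adjusted p = 1.08e-08 by limma). ITGA5 thus fell 3.37-fold where ITGB1 fell 13.2-fold, a difference that was not tested. ITGAV, the chain of the vitronectin receptors, which also bind fibronectin, fell 13.4-fold from 61.8 ± 1.27 to 4.62 ± 1.11 FPKM (adjusted p = 2.78e-08 by limma). SDC3, a syndecan, fell 4.72-fold (adjusted p = 2.44e-08 by limma), whereas SDC4, the syndecan of focal adhesions, fell 1.36-fold from 275 ± 4.72 to 202 ± 11.4 FPKM (adjusted p = 5.94e-05 by limma). CD44, a hyaluronan receptor, fell 3.15-fold from 425 to 135 FPKM (adjusted p = 5.34e-09 by limma), and CD47, a receptor for thrombospondin-1, fell 2.52-fold from 45.6 to 18.1 FPKM (adjusted p = 3.65e-08 by limma).

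Genes for the cytosolic side of the same adhesions were called in shares near those of all genes. Of 28 listed cytosolic and nuclear adhesion proteins 27 were tested, of which 13 fell, 9 rose and 5 did not pass, with a median of -0.10. That is 48.1% lower and 33.3% higher, against 41.3% and 33.3% of all genes, and nothing is read from it for the list. TNS4, a tensin, fell 3.02-fold from 28.8 to 9.51 FPKM (adjusted p = 1.85e-08 by limma), VCL, which encodes vinculin, fell 2.56-fold from 50.6 ± 1.7 to 19.8 ± 2.74 FPKM (adjusted p = 1.53e-06 by limma), and TNS1 fell 3.87-fold from 2.21 to 0.57 FPKM (adjusted p = 9.77e-07 by limma), having passed the minimum through siControl alone. FHL2, a LIM-domain adaptor, rose 1.85-fold from 150 ± 2.24 to 278 ± 11.8 FPKM (adjusted p = 3.54e-07 by limma), and RSU1, a partner of the integrin-linked kinase complex, rose 1.45-fold (adjusted p = 1.78e-05 by limma), a call lost with TPM scaling. With TPM scaling 18 of the list fell and 1 rose, and with the correction for transcript length 6 fell and 13 rose. The difference between this list and the receptors was not tested.

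**Figure D2:**
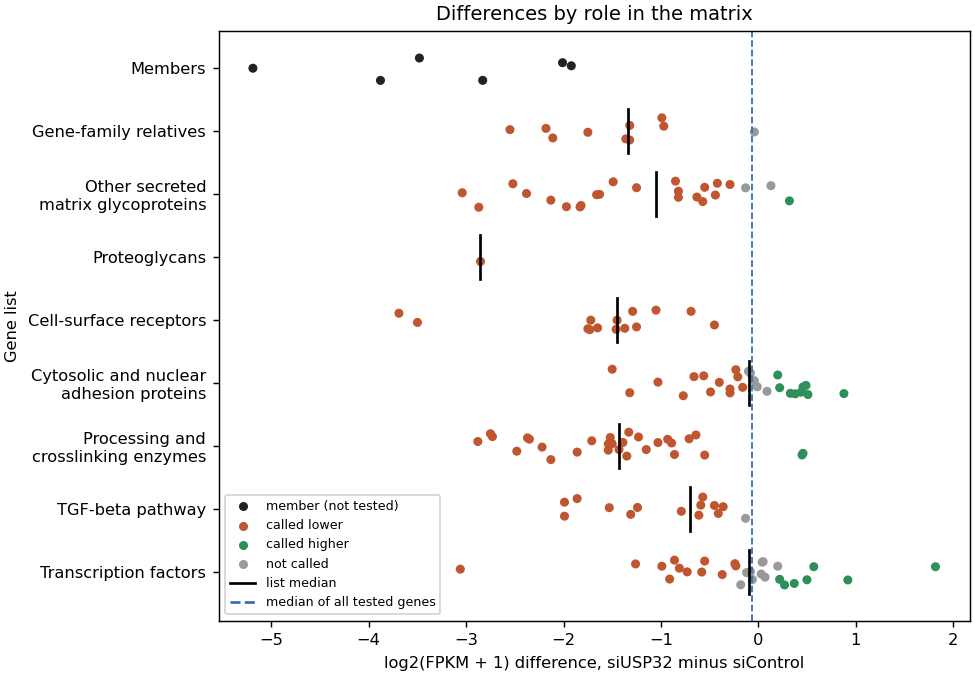
Differences on the log2(FPKM + 1) scale by role, 1 point per gene, with called genes coloured by direction, the list median as a bar and the median of all tested genes (-0.06) as a dashed line. The receptor points all lie below 0 (median -1.45), whereas cytosolic and nuclear adhesion genes lie on both sides (median -0.10).

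Enzymes that fold, cleave or crosslink matrix glycoproteins fell in 27 of 29 tested cases and rose in 2, of 33 listed, with a median of -1.43. PLAT, the tissue plasminogen activator, fell 7.46-fold from 408 ± 7.53 to 54.6 ± 1.23 FPKM (adjusted p = 9.64e-10 by limma). The lysyl oxidase relatives LOXL2 and LOXL4, which crosslink collagen and elastin, fell 7.11-fold and 7.21-fold (adjusted p = 1.24e-09 for each by limma). BMP1, a protease that processes several matrix precursors, fell 2.81-fold from 23.4 to 8.32 FPKM (adjusted p = 2.53e-07 by limma). TGM2, the transglutaminase that crosslinks fibronectin and has no signal peptide, was among the 2 that rose, from 77.13, 75.4 and 76.89 to 104.58, 107.88 and 105.09 FPKM (adjusted p = 1.25e-05 by limma), with a call lost by TPM scaling. The other was LOXL3, from 1.02 to 1.77 FPKM (adjusted p = 0.00161 by limma).

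The TGF-beta list held ligands, receptors and SMADs, and also the regulators SKI, SKIL, SMURF1 and SMURF2. Of 15 genes listed 14 were tested, of which 13 fell and 1 (SMURF1) did not pass, with a median of -0.70. The falls included inhibitors of the pathway, SMAD6 (3.91-fold), SKIL (2.59-fold), SMAD7 (1.78-fold), SMURF2 (1.62-fold) and SKI (1.55-fold). These inhibitors were named after their values were seen. The ligand gene TGFB2 fell 5.14-fold from 12.7 ± 0.317 to 2.47 ± 0.448 FPKM (adjusted p = 1.48e-07 by limma), and TGFB1 fell 1.5-fold from 31.5 to 21.0 FPKM (adjusted p = 2.51e-04 by limma). The receptor gene TGFBR1 fell 4.61-fold from 20.8 to 4.51 FPKM (adjusted p = 3.76e-08 by limma), and TGFBR3, the co-receptor betaglycan, fell 12.2-fold from 3.74 to 0.307 FPKM (adjusted p = 2.78e-08 by limma), having passed the minimum through siControl alone. SMAD3, the cytosolic signal carrier, fell 1.28-fold from 61.1 to 47.6 FPKM (difference -0.36, adjusted p = 1.53e-04 by limma). It was higher with the correction for transcript length (0.18, adjusted p = 0.00387 by limma). With that correction 9 of the 14 were called lower and 3 higher. The other 2 called higher were SMAD4, the common SMAD (from -0.41 to 0.21, adjusted p = 0.0245 by limma), and SMURF1, a ubiquitin ligase of the pathway (from -0.13 to 0.37, adjusted p = 1.7e-04 by limma), both named after their values were seen.

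Of 29 listed transcription factors known to act on matrix glycoprotein genes 28 were tested, of which 12 fell, 7 rose and 9 did not pass, with a median of -0.10. The shares, 42.9% lower and 25% higher, are near those of all genes (41.3% and 33.3%), and nothing is read from them for the list. NOTCH2, a membrane receptor whose cleaved part acts in the nucleus, fell 13.4-fold from 19.4 to 1.45 FPKM (adjusted p = 6.86e-09 by limma), and near-identical NOTCH2NL copies make its value uncertain. Its nuclear partner RBPJ fell 2.08-fold (adjusted p = 2.69e-06 by limma). TEAD1, which binds the TEAD site with YAP, fell 2.57-fold (adjusted p = 4.91e-06 by limma), and YAP1 fell 1.83-fold (adjusted p = 3.69e-05 by limma). Of their relatives, TEAD3 fell 1.69-fold (adjusted p = 1.04e-04 by limma) and TEAD4 rose 1.5-fold (adjusted p = 8.52e-04 by limma). TEAD2 and WWTR1 did not pass. These relatives were named after their values were seen, and their values in the alternative settings are not given. SP1, a factor of the GC box, fell 1.88-fold from 11.1 ± 0.27 to 5.90 ± 0.771 FPKM (adjusted p = 2.79e-05 by limma). Of the listed AP-1 genes, JUN and FOSL1 rose 1.52-fold and 1.91-fold (adjusted p = 2.12e-05 and 3.84e-07 by limma). JUND rose 1.22-fold (adjusted p = 0.00738 by limma), whereas FOSL2 fell 2.09-fold (adjusted p = 1.83e-06 by limma). FOS and JUNB did not pass. JUND, FOSL2, FOS and JUNB were named after their values were seen, and their values in the alternative settings are not given. ATF4, the effector of the integrated stress response, rose 3.56-fold from 135 ± 0.14 to 481 ± 38.8 FPKM (adjusted p = 1.63e-08 by limma). With TPM scaling 21 of the 28 fell and 3 rose, and with the correction for transcript length 8 fell and 11 rose.

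The members were chosen as secreted proteins, so a hydrophobic stretch at the start of the protein goes with the choice. Such stretches were searched in the principal protein of each gene in GENCODE 29, to place the members among genes of the same kind. A window of 19 residues whose Kyte-Doolittle values averaged at least 1.6, starting in the first 30 residues, was present in 3 of 7 members (TNC, FBLN2 and TGFBI) and in 12.7% of 11957 tested genes. A shorter window of 9 residues at a mean of at least 2, added after seeing the data, was present in 7 of 7 members and in 21.3% of the tested genes. No member had a later segment of 19 residues at a mean of at least 1.6. Of 1338 tested genes with a 9-residue stretch at the start alone, 53.6% were called lower and 27.7% higher, with a median of -0.28 and quartiles of -1.0 and 0.26. Of 1919 genes with a later segment alone, 53.8% were called lower and 22.7% higher (median -0.24). These shares are near those for a 9-residue stretch at the start alone, but this depended on the rule. By the 19-residue rule 64.0% were called lower with a start stretch alone (median -0.59). With a later segment alone that rule gave 56.5% (median -0.29). With the correction for transcript length the 9-residue medians were -0.17 and 0.04. The difference between these classes was not tested. Of 7486 genes with no stretch, 30.2% were called lower and 40.9% higher (median 0.06). Genes with both a stretch at the start and a later segment, as many membrane receptors have, were called lower in 76.5% of 1214 cases (median -0.83). The members were spread within this class. None of the genes with a stretch at the start alone had a lower difference than FN1, 2 had a lower one than TNC and 3 than FBLN2, whereas 92 had a lower one than SPARC and 105 than LUM. These counts include the other members. As the members were chosen partly for their falls, nothing is read from their place in the class.

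**Figure D3:**
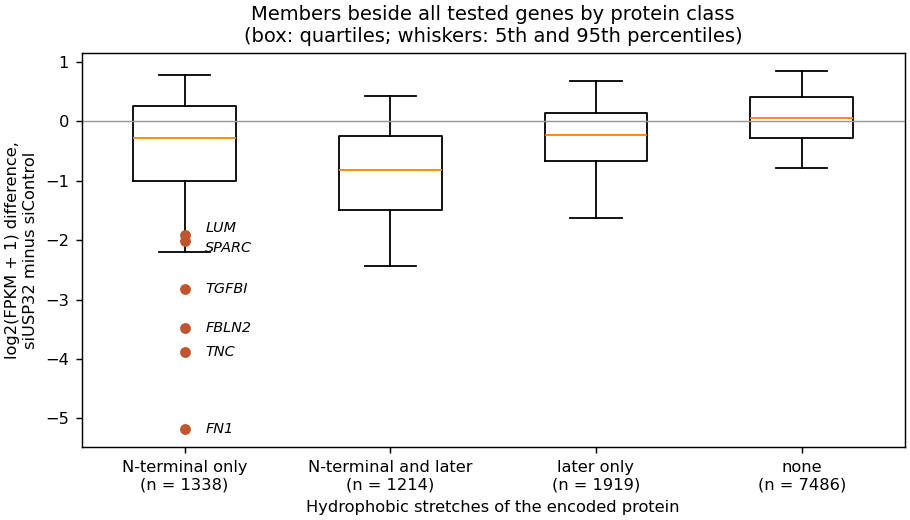
Differences on the log2(FPKM + 1) scale for all tested genes by the hydrophobic stretches of their proteins (box, quartiles; whiskers, 5th and 95th percentiles), with the 6 tested members as named points. FN1, TNC, FBLN2 and TGFBI lie below the lower whisker of their class, and SPARC and LUM lie within it. The members were chosen partly for their falls, so their place is a description only.

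The members also differed in transcript length. The principal transcripts of FN1 (7898 bases), THBS1 (7775) and TNC (7641) were the longest, followed by FBLN2 (4318), SPARC (3701), LUM (3008) and TGFBI (2804). Among the tested members the order of the differences followed that of length, the longest being the lowest, except for TGFBI, the shortest, which had a lower difference than SPARC and LUM. The order of SPARC and LUM depended on the pseudocount, as with 0.1 they were nearly level (-2.02 and -2.03). Over all genes the median difference was 0.43 in the fifth with the shortest transcripts and -0.46 in the fifth with the longest, and a correction of each library for length was therefore tried. The difference then was -4.58 for FN1, -3.28 for TNC, -3.09 for FBLN2, -2.70 for TGFBI, -1.70 for SPARC and -1.74 for LUM, against a median over all genes of 0.11. All 6 members stayed lower in each of the 15 alternative settings, with ranges of -5.57 to -4.58 for FN1, -4.28 to -3.28 for TNC and -2.29 to -1.74 for LUM.

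**Figure D4:**
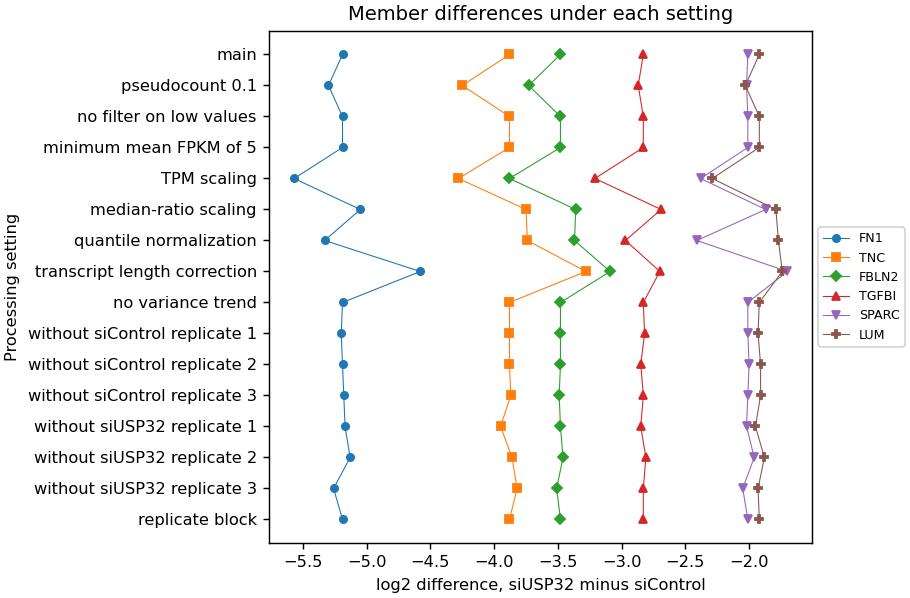
Difference on the log2 scale (siUSP32 minus siControl) of the 6 tested members under the main and the 15 alternative settings, 1 line per gene. FN1 is the lowest in every setting and LUM or SPARC the highest, and no point reaches 0.

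The genes with profiles over the 6 libraries most like those of the members were found by the Euclidean distance between log2(FPKM + 1) profiles centred on their mean, which here rests almost wholly on the size of the group difference. The nearest to FN1 were LAMC1 (distance 1.59), a laminin chain, TNC (1.63) and the integrin chain ITGA6 (1.70), so no gene lay close to it. TNC was nearest to LAMC1 (0.247), APP (0.294) and C3 (0.311), and FBLN2 to DAG1 (0.0723), LAMA3 (0.116) and ITGA2 (0.192). TGFBI was nearest to the laminin chain LAMB1 (0.0677), PLAT (0.0804) and VCAN (0.103). SPARC was nearest to the sodium pump subunit ATP1B1 (0.0578), the netrin receptor gene NEO1 (0.0595) and KTN1 (0.0707), which encodes an endoplasmic reticulum membrane protein. LUM was nearest to PTGS1 (0.0554), a prostaglandin synthase, SERPINE2 (0.0631), a secreted protease inhibitor, and the Wnt receptor gene FZD7 (0.0776).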

How the data were processed

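Per the file headers, the authors deposited FPKM, with 2 decimals and 1 table per library. They name GRCh38.p13 as genome build in the submitters' processing notes. Aligner, counting tool, annotation and strand handling were not found (not given in the sources used here). FPKM is not a count, so no count model was used. Low values compared between libraries gave no common step, so read depth is unknown and counting intervals were not computed.

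Genes with a mean of at least 1 FPKM over the 6 libraries (12003) were compared as log2(FPKM + 1) by limma 3.58.1 (R 4.3.3), using its trend of variance on mean level, 2-sided tests without covariates and Benjamini-Hochberg adjustment. An exact permutation test of 3 against 3 libraries cannot give a p below 0.1. With separate cultures not stated, p-values reflect library-to-library spread that may be technical only. The fit was tried on simulated normal values in which few genes were changed. In these data most genes were called, so that trial does not test the calls made here. Folds are ratios of mean FPKM, and differences with the pseudocount of 1 understate changes of low genes.

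The members, 8 gene lists and 3 marker lists were chosen with earlier results of these data known. Text names the members, up to 3 falls and 2 rises of largest size per list, genes set by role, and the 3 nearest profiles of each member. Locations, lengths and proteins are from GENCODE 29 (GRCh38), with a length for 99.6% of tested genes. The 9-residue search was added after seeing the data. Alternatives were a pseudocount of 0.1, no filter, a minimum of 5 FPKM, TPM, median-ratio and quantile scaling, a loess correction for transcript length (span 0.5), limma without the trend, leaving out each library, and the replicate number as a block.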

Additional observations from a re-analysis of the deposited data

How the results depend on the processing

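The 6 tested members were lower in all 15 alternatives. Scaling moved the median difference of all genes from -0.063 to -0.392 with TPM, 0.057 with the median ratio, 0.101 with quantiles and 0.113 with the length correction. Genes called lower numbered 4956, against 3068 at a minimum of 5 FPKM and 7453 with TPM, and genes called higher 4001, against 1716 with TPM. At the minimum of 5 FPKM, which tests fewer genes, 5 family relatives and 12 other matrix glycoproteins were lower, 0 of the latter were higher and 1 processing enzyme was higher. With no filter 1 relative and 2 other glycoproteins were higher and 4 proteoglycans lower. Other glycoproteins called higher numbered 0 with TPM, 2 with the median ratio and 1 to 2 with single libraries left out (2 without siUSP32 library 2). With TPM 1 adhesion gene, 1 processing enzyme and 3 transcription factors were higher and 21 factors lower. With the length correction 6 adhesion genes were lower, 3 TGF-beta genes and 11 factors were higher, and SMAD3 was at 0.18. The causes were not tested. By the 19-residue rule the class medians were -0.59 (start only), -0.91 (start and later), -0.29 (later only) and 0.06 (none). They were -0.38, -0.67, -0.06 and 0.19 with quantiles, -0.51, -0.71, -0.02 and 0.20 with the length correction, and -0.28, -0.83 and -0.24 for the first 3 with the 9-residue rule. Correlations of same-numbered deviations were small (-0.0766, 0.0706 and 0.119), and those of the other pairs ran from -0.158 to 0.1. With 3 libraries per group they cannot settle whether replicate numbers pair the libraries. With the replicate block 4979 genes were lower and 4016 higher. Of the other genes named, EMILIN2, RSU1 and TGM2 lost their call with TPM (0.03, 0.15 and 0.1), whereas EFEMP2 (-0.39) and MMRN2 (-0.36), not called otherwise, were called lower. MFAP1 was called higher with the median ratio (0.27) and without siUSP32 library 2 (0.19). Without a call, EFEMP2 was above 0 with the median ratio (0.09) and quantiles (0.13) (-0.12 to 0.0 with single libraries left out), MMRN2 was above 0 with quantiles (0.24) and the length correction (0.27), and MFAP1 was below 0 with TPM (-0.23). Since depth is unknown, no counting error can be given for THBS1.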
